A study of Mus musculus with 6 samples.

Results

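The histone genes of the tables were taken by symbol: those starting with Hist1h, Hist2h, Hist3h or Hist4h are called replication-dependent here, those starting with H2af, H3f3 or H1f are called variant, and pseudogenes (-ps) were left out. The rule found 77 of 11736 genes, 66 replication-dependent (6 H1, 17 H2A, 18 H2B, 12 H3 and 13 H4) and 11 variant (2 H1, 7 H2A and 2 H3). The RNA came from somatic cells of the gonads of XY mouse embryos (strain C57BL/6, stage E11.5). The 2 groups are Cdyl-Het, heterozygous for the deficiency, and Cdyl-KO, homozygous for it, with 3 libraries each. All 6 carry the Nr5a1-hCD271 genotype, in which the surface tag hCD271 marks these cells per the labels, and cells with the tag were collected with magnetic beads. The controls are therefore heterozygotes, not wild type, and the labels do not say which part of Cdyl is altered or whether a library is 1 embryo or a pool. Replicates are separate samples of a group, and nothing says that they are separate animals, so the spread behind each p-value may be technical only.

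Histones package DNA. H2A, H2B, H3 and H4 form the core of the nucleosome, and H1 binds the linker between cores. Replication-dependent histone genes lie in clusters, are transcribed mainly in S phase and give mRNAs without a poly(A) tail, which end in a stem-loop bound by the protein Slbp. Variant genes lie apart, mostly give polyadenylated mRNAs and are made throughout the cell cycle. Cdyl, the altered gene, encodes a chromodomain protein that works with repressive histone marks. The libraries were made from total RNA, which by itself does not show whether RNAs without a poly(A) tail were kept. The deposited values include 122 short RNAs without such a tail.

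The stem-loop is the feature that sets the classes apart in sequence, so its commonest forms are shown first. They were read from GENCODE M21 transcripts (build GRCm38, which is mm10) on the sense strand, within 150 bases after the stop codon. Capitals mark the 2 arms of the 6-base stem, and the 4 bases of the loop are in lower case.
The form of 10 H2A and 8 H2B genes: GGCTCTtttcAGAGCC
The form of 7 H4 genes: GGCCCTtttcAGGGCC
Some H1, H2B and H3 genes: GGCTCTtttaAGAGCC
The first form was found in 26 members (3 H1, 10 H2A, 8 H2B and 5 H3), the second in 7 members, all H4, and the third in 6 members (1 H1, 2 H2B and 3 H3). A stem-loop of any form was found in 46 of 66 replication-dependent genes, in 1 of 11 variant genes, H2afx, and in 6 of 21754 other protein-coding genes (0.0276%). Of the 20 replication-dependent genes without one, 14 have annotated models that end less than 30 bases after the stop codon, so the window there held too little sequence to show it. The stem-loop began 21 to 58 bases after the stop codon in the replication-dependent genes.

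The other sequences shown are the 250 bases before the start of 2 H2B genes, from RefSeq (GRCm38.p6, plus strand). Hist1h2bj shares its start region with an H2A gene read the other way, and Hist1h2bm had the largest H2B difference. Capitals mark the letters CCAAT and ATTTGCAT (the octamer of H2B promoters) on either strand.
Hist1h2bj, chr13:22042948-22043197: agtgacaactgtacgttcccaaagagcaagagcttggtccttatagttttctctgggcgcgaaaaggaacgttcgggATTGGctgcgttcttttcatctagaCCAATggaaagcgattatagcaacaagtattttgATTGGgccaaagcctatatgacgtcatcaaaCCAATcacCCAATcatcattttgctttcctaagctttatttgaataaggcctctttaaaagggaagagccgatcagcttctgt
Hist1h2bm, chr13:21721794-21722043: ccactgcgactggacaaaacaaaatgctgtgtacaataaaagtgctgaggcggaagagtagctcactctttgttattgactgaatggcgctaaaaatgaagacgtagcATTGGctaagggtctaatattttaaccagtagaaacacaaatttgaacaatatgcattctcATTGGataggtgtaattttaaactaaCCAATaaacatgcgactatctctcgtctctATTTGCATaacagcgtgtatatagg
RefSeq promoters (250 bases before to 50 after the start) matched 70 of the 77 members. In the replication-dependent class, CCAAT was present in all 17 H2A, all 16 matched H2B, all 10 matched H3 and all 6 H1 promoters and in 3 of 12 matched H4 promoters, against 37.9% of all 27021 promoters and 39% of the 8639 matched promoters of the other genes in the tables. Among variants it was in 0 of 2 H1, 4 of 5 matched H2A and 2 of 2 H3 promoters. The octamer was present in 6 of 16 H2B and 6 of 17 H2A promoters and in none of the matched H1, H3 or H4 promoters of the same class, against 1.75% of all promoters and 1.23% of those of the other genes in the tables. TATAAA, searched in the same way, was in 4 of 6 H1, 10 of 17 H2A, 8 of 16 H2B, 4 of 10 H3 and 8 of 12 H4 promoters of this class, against 14.2% and 6.3%.

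Deposited values were taken as RPKM, the reads of a gene divided by its length in kilobases and by the library's depth. The low values imply 34.6 to 45.2 M reads per library, and the members then rest on 23 to 22387 reads each in a library. These reads are approximate, as only 8 of the 77 members gave whole reads in all 6 libraries. Cdyl itself, at 7.77, 8.06 and 8.22 scaled RPKM in Cdyl-Het against 6.77, 6.93 and 7.07 in Cdyl-KO, was lower in every Cdyl-KO library without passing the test (change -0.19 ± 0.05 on the log2 scale, adjusted p = 0.0702 by limma). A value over the whole gene does not show which exons remained. Scaled RPKM are the deposited values divided by 1 factor per library (0.928 to 1.06). At an adjusted p under 0.05 by limma, 4.67% of all genes rose and 2.83% fell. Of 7 markers of gonadal somatic cells, 3 rose (Nr0b1, Emx2 and Lhx9), while Nr5a1, Wt1, Gata4 and Cbx2 did not pass the test. The call of Lhx9 was lost without Cdyl-Het replicate 2 or any 1 Cdyl-KO replicate (adjusted p of up to 0.0874 over all alternatives). All 8 measured endothelial markers had negative changes, 4 of them past the threshold, with sums of 33.65 to 36.39 scaled RPKM in Cdyl-Het and 21.25 to 24.41 in Cdyl-KO. Of these 4, Kdr passed in all 14 alternative fits, while Egfl7, Cdh5 and Tek each lost the call without most single libraries, with adjusted p-values of up to 0.0965, 0.105 and 0.151. The 5 measured blood markers (globins) summed to 49.4 to 252.5 in Cdyl-Het and 52.0 to 152 in Cdyl-KO, and none passed. The 2 germ cell markers in the tables summed to 3.34 to 5.15 and 3.14 to 3.77, and the 4 mesonephric tubule markers to 10.28 to 14.95 and 12.72 to 15.50, of which Pax8 rose. Tubb3 rose, 1 of the 2 nerve and muscle markers, whose sums were 4.68 to 5.48 and 6.34 to 8.37. The calls of Pax8 and Tubb3 were lost without some single libraries too (adjusted p of up to 0.0717 and 0.0624 over all alternatives). Other markers of these lists are not analysed here. In such bulk samples a change in cell composition and a change in RNA per cell cannot be told apart, and the part of these cell types in the histone results was not tested.

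The comparison asked whether histone RNA differs between Cdyl-KO and Cdyl-Het, and whether replication-dependent and variant genes differ alike. Among replication-dependent genes, 17 of 66 rose in Cdyl-KO and 0 fell, by limma at an adjusted p under 0.05, where 4.67% of all genes rose and 2.83% fell. Of these 17 genes, 15 encode H2B, the partner of H2A in the nucleosome core. The other replication-dependent genes held 2 calls in 48 (4.17%), close to the share among all genes. All of the 48 but Hist1h1t had means above 12.1 scaled RPKM, and 9.07% of all genes from that level up rose. The 2 were Hist3h2a and Hist1h4h. At an unadjusted p under 0.05, limma counted 32 of 66 genes higher and 0 lower (16 H2B, 9 H2A, 5 H4, 2 H3 and 0 H1), against 1665 higher and 1312 lower of all 11736 genes. The median change was 0.18 over the 66 genes, 0.29 over the 18 H2B genes and 0.12 over the 48 others, with -0.00059 over all genes. A change is the Cdyl-KO mean less the Cdyl-Het mean of log2(scaled RPKM + 1), a scale on which the change of a gene of low level comes out too small.

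The scaling sets how far the types stand from 0, while their order changed little. On the deposited values, where the median of all genes was -0.12, the medians were 0.14 for H2B, 0.036 for H2A, 0.038 for H4, -0.027 for H3 and -0.20 for H1, so that the sign of the H3 median turned. There 7 of 66 replication-dependent genes rose (6 H2B genes and Hist3h2a), where 2.60% of all genes rose, and Hist1h1b fell, where 13.3% of all genes fell. After quantile normalization, which makes the distribution of values the same in each library, the H2B median was 0.13, those of H2A and H3 turned to -0.034 and -0.033, H4 was at 0.054 and H1 at -0.20, and 3 of 66 genes rose (2 H2B genes and Hist3h2a). H2B had the highest median of the 5 types and H1 the lowest under these and 2 other scalings, trimmed mean and median ratio.

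All 18 H2B genes had positive changes, from 0.10 to 0.52. Hist1h2bm measured 131.9, 122.5 and 110.1 scaled RPKM in Cdyl-Het against 172.1, 161.9 and 190.7 in Cdyl-KO. Every Cdyl-KO library was above every Cdyl-Het library, and the change was 0.52 ± 0.09 (SE, adjusted p = 0.0194), which is 43.9% more in the means. Hist1h2bn, the H2B gene of highest level, measured 436.3, 407.3 and 394.7 in Cdyl-Het against 536.4, 513.1 and 561.9 in Cdyl-KO. Its groups did not overlap either, at 412.8 ± 21.3 and 537.1 ± 24.4 (SD, n = 3) and a change of 0.38 ± 0.07 (adjusted p = 0.0231). Hist1h2be measured 22.38, 21.06 and 21.84 in Cdyl-Het against 26.95, 29.66 and 30.58 in Cdyl-KO. Its exon model holds 4446 bases, against 381 for Hist1h2bn, which lowers its RPKM. Implied reads were 3598 to 5699, against 6010 to 8975 for Hist1h2bn. The Hist1h2be change of 0.40 ± 0.06 (adjusted p = 0.0139 by limma) was of the same size as that of Hist1h2bn. The exons of Hist1h2be overlap those of Hist1h1e, which did not pass the test (-0.07 ± 0.06). Hist1h2bj measured 174.4, 178.6 and 170.2 in Cdyl-Het against 222.9, 230.5 and 219.3 in Cdyl-KO. The groups lay well apart, with SDs of 4.204 and 5.71, at a change of 0.36 ± 0.05 (adjusted p = 0.0127), the smallest adjusted p among the H2B genes.

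The remaining H2B genes past the threshold lay between changes of 0.22 and 0.36. Hist1h2bp (66.3 ± 3.31 in Cdyl-Het against 85.6 ± 2.83 in Cdyl-KO), Hist3h2ba (18.0 ± 0.92 and 23.4 ± 1.79) and Hist1h2bg (199 ± 1.49 and 256 ± 19.9) each changed by 0.36. Hist1h2bh (32.5 ± 0.68 and 41.1 ± 1.96) changed by 0.33. These 4 genes come from the clusters on chromosomes 13 and 11 and had 26.4% to 30.4% more RNA in Cdyl-KO. Hist1h2bb (248 ± 2.22 and 304 ± 6.12), Hist1h2bf (106 ± 0.78 and 128 ± 1.31) and Hist1h2bk (240 ± 8.14 and 291 ± 9.74) changed by 0.29, 0.28 and 0.27. Hist1h2br (52.1 ± 0.55 and 62.2 ± 0.42), Hist1h2bq (51.4 ± 0.84 and 60.7 ± 2.19) and Hist1h2bc (138 ± 1.54 and 161 ± 1.66) changed by 0.25, 0.24 and 0.22. The 15 adjusted p-values ran from 0.0127 to 0.0484, so several lay just inside the threshold, and Hist1h2bl was the last of them.

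The 3 H2B genes that did not pass were the 2 of the chromosome 3 cluster and Hist1h2ba, the testis H2B gene. Hist2h2bb measured 360.9, 337.0 and 313.4 in Cdyl-Het against 430.1, 412.3 and 391.0 in Cdyl-KO. These groups did not overlap, and the change of 0.29 ± 0.07 had an adjusted p of 0.0639. Hist1h2ba (6.59, 6.35 and 7.65 against 9.63, 7.46 and 6.45) and Hist2h2be (2.76, 2.73 and 2.65 against 2.61, 2.93 and 3.48) had overlapping groups. They are the 2 H2B genes of lowest level, and Hist1h2ba rests on 91 to 154 reads. In 16 of 18 H2B genes every Cdyl-KO library lay above every Cdyl-Het library, where 17.0% of all genes did and 14.5% lay the other way. Of the 2934 genes from 12.1 scaled RPKM up, 880 were higher without overlap and 210 lower.

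**Figure D1:**
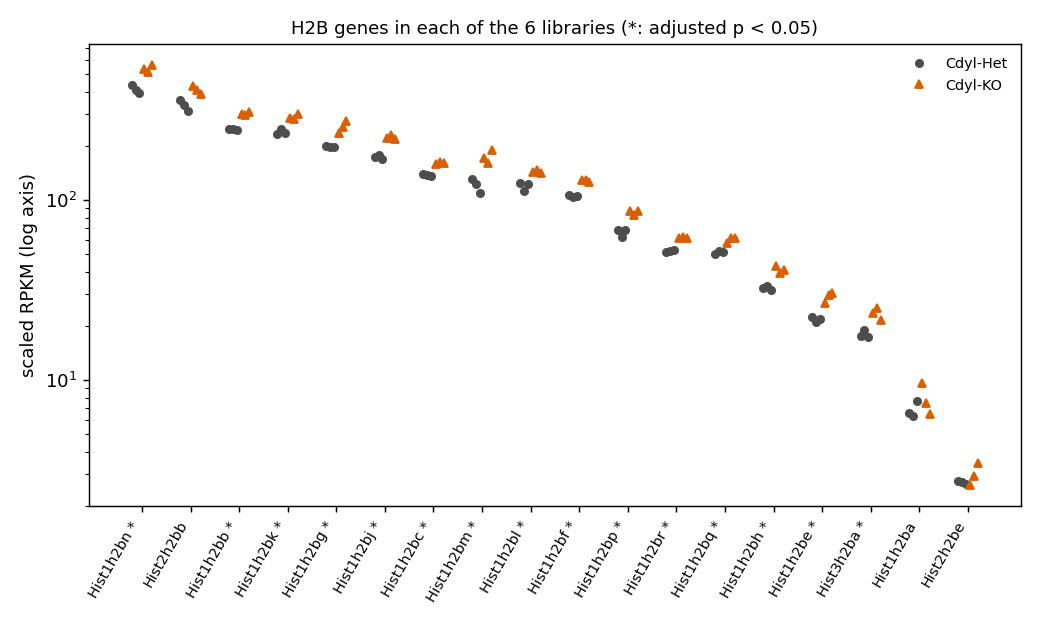
Scaled RPKM (vertical log axis) of the 18 H2B genes in each of the 3 Cdyl-Het (grey circles) and 3 Cdyl-KO (orange triangles) libraries, ordered by level, with an asterisk at the 15 genes past an adjusted p of 0.05. In 16 genes the triangles all lie above the circles, and the exceptions are Hist1h2ba and Hist2h2be, the 2 lowest.

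The count of H2B calls fell whichever single library was left out. It was 6, 1 and 2 without Cdyl-Het replicate 1, 2 or 3 and 3, 5 and 4 without Cdyl-KO replicate 1, 2 or 3, while the H2B median stayed between 0.28 and 0.31 in these fits. The copies share sequence and may share reads, so the 15 calls are not 15 independent observations.

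Among H2A genes the changes were mostly smaller than in H2B, with 1 of 17 past the threshold and a median of 0.18. Hist3h2a, the H2A gene of the small chromosome 11 cluster, measured 14.15, 14.49 and 14.90 in Cdyl-Het against 19.19, 19.36 and 21.60 in Cdyl-KO. The groups did not overlap, and the change of 0.44 ± 0.06 (adjusted p = 0.0103) passed the threshold in each of 14 alternative fits, with adjusted p-values of 0.0101 to 0.0459. It was the only histone gene that did. Its exon of 2146 bases (chr11:58954685-58956830) overlaps an exon of Trim17 on the same strand, so reads of the 2 genes could not be told apart there. Trim17 itself changed by 0.34 ± 0.07 (adjusted p = 0.0367). Hist3h2ba, the H2B gene of the same cluster, has no such overlap.

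The highest H2A levels were those of Hist1h2ak, Hist1h2ai, Hist2h2aa1 and Hist1h2ab. Hist1h2ak measured 346.7, 369.3 and 370.2 in Cdyl-Het against 362.8, 397.5 and 387.5 in Cdyl-KO, and Hist1h2ai measured 296.3, 280.3 and 311.7 and then 297.9, 357.3 and 304.4. Both had overlapping groups, at changes of 0.08 ± 0.06 and 0.11 ± 0.09. Hist2h2aa1, at 268.0, 285.5 and 283.7 against 310.3, 353.0 and 342.1, did not overlap but did not pass (0.26 ± 0.07, adjusted p = 0.0674). Its copy Hist2h2aa2 gave 0.24 ± 0.07, and Hist1h2ab 0.24 ± 0.08. At the other end, Hist2h2ab had 41.69, 39.25 and 44.46 in Cdyl-Het against 37.55, 40.70 and 37.61 in Cdyl-KO, a change of -0.11 ± 0.06, and Hist1h2ac changed by 0.05 ± 0.08. Each of the 17 H2A genes overlaps an exon of another gene model, most of these without a proper name.

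In 11 cases an H2A and an H2B gene lie head to head, with starts 176 to 302 bases apart, so the start region printed for Hist1h2bj serves both genes. 10 of these pairs are on chromosome 13 and 1 on chromosome 3. The H2B change was the larger in 10 of 11 pairs, with a median difference of 0.17. In the pair of Hist1h2ak and Hist1h2bn, the ratio of H2B to H2A was 1.258, 1.103 and 1.066 in Cdyl-Het against 1.478, 1.291 and 1.450 in Cdyl-KO. Division by 1 factor per library leaves this ratio unchanged. The groups of this ratio did not overlap here, nor for Hist1h2an with Hist1h2bp (means 0.423 and 0.515) and Hist1h2ag with Hist1h2bj (0.770 and 0.912). They overlapped in the other 8 pairs, while among single genes 17.0% were higher without overlap and 14.5% lower on scaled values. The pair ratios were not tested. Copies share sequence, so the 11 pairs are not 11 independent observations. In the chromosome 3 pair, Hist2h2ac and Hist2h2be, the ratio averaged 0.0159 and 0.0154, and H2A had the larger change (0.19 against 0.10).

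**Figure D2:**
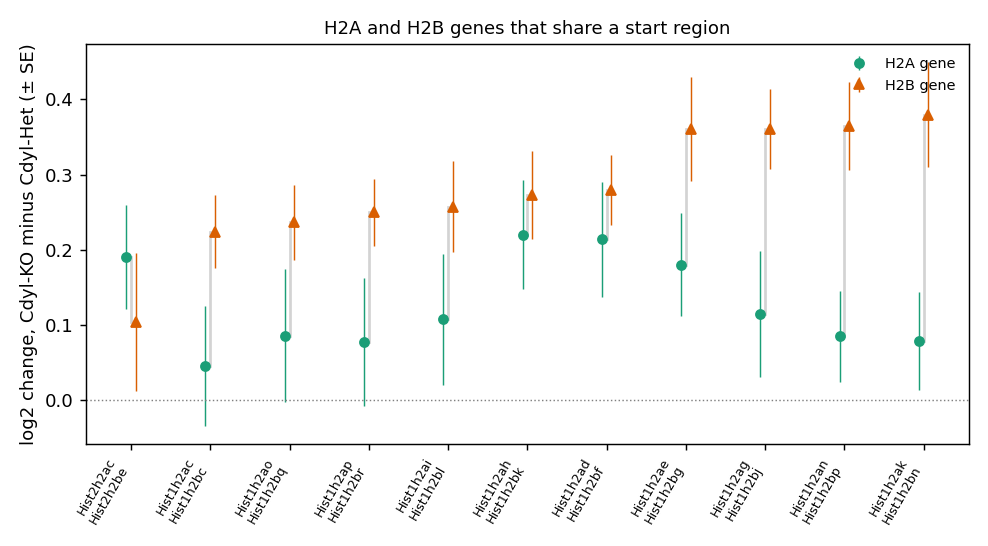
Change (Cdyl-KO minus Cdyl-Het, log2 scale, bars ± SE) of the H2A gene (green circle) and the H2B gene (orange triangle) of the 11 head-to-head pairs, ordered by the H2B change. The triangle is above the circle in 10 of 11 pairs, and the first pair, Hist2h2ac and Hist2h2be, is the exception.

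H3 and H4 form the inner tetramer of the nucleosome. None of the 12 H3 genes passed, although all 12 had positive changes (0.04 to 0.24, median 0.12) that became negative in 7 of them on the deposited values. Hist1h3h had the largest change, with 109.2, 116.0 and 118.4 in Cdyl-Het against 133.5, 147.9 and 124.9 in Cdyl-KO. Its groups did not overlap, at 0.24 ± 0.07 (adjusted p = 0.102). Hist1h3g (118.0, 118.3 and 118.8 against 143.9, 144.8 and 118.7) had 2 Cdyl-KO libraries far above a tight Cdyl-Het group and the third within it. Hist2h3c2 and Hist1h3f had the smallest changes, 0.05 ± 0.06 and 0.04 ± 0.07.

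Of 13 H4 genes, Hist1h4h rose, and the median was 0.18. Hist1h4h measured 278.7, 262.5 and 264.8 in Cdyl-Het against 358.8, 351.7 and 309.1 in Cdyl-KO, without overlap (0.34 ± 0.07, adjusted p = 0.0416). It no longer passed on the deposited values (0.19, adjusted p = 0.144), after quantile normalization (0.08, adjusted p = 0.3001) or without any 1 of 5 libraries (adjusted p of 0.0823, 0.123 and 0.124 without Cdyl-Het replicates 1, 2 and 3, and 0.114 and 0.110 without Cdyl-KO replicates 1 and 2). Hist1h4j (0.27 ± 0.08) and Hist1h4a (0.23 ± 0.10) had the largest changes among those that did not pass. Hist1h4k, the H4 gene of highest level, had 294.6, 289.4 and 329.8 in Cdyl-Het against 336.3, 362.1 and 276.0 in Cdyl-KO. Cdyl-KO replicate 3 was the lowest of the 6 there. The same held for Hist1h4n (154.5, 159.5 and 182.6 against 184.5, 188.7 and 146.8) and Hist1h4b (127.6, 148.2 and 150.5 against 153.7, 148.8 and 113.8), with changes of 0.06 ± 0.11 and -0.04 ± 0.13.

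The linker histones of the cluster had the lowest median of the 5 types. Of the 6 replication-dependent H1 genes none passed, and 5 had negative changes, with a median of -0.054. Hist1h1b measured 218.4, 267.5 and 234.9 in Cdyl-Het against 209.1, 220.0 and 196.4 in Cdyl-KO. These groups overlap, at -0.20 ± 0.09 (adjusted p = 0.210). The gene fell on the deposited values (-0.35, adjusted p = 0.0489) and after quantile normalization (-0.44, adjusted p = 0.0342). Hist1h1a, the H1 gene of highest level, had 231.5, 264.5 and 252.9 against 260.8, 255.0 and 226.7, a change of -0.01 ± 0.08. Hist1h1c gave 0.06 ± 0.06, and the testis H1 gene Hist1h1t, at 5.40 ± 1.66 and 4.59 ± 1.11, gave -0.18 ± 0.22. Hist1h1e and Hist1h1d lay between, at -0.07 and -0.04.

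Among the 11 variant genes, H1f0 rose and none fell by limma, with a median change of 0.15, and 7 were higher and 0 lower at an unadjusted p under 0.05. H1f0, a linker histone known from cells that leave the cell cycle, measured 68.77, 68.07 and 65.37 in Cdyl-Het against 80.15, 81.93 and 86.22 in Cdyl-KO. The groups lay apart, at 0.29 ± 0.05 (adjusted p = 0.0229). Without any 1 of the 6 libraries it no longer passed, nor on the deposited values (adjusted p = 0.0663) or after quantile normalization, with the highest adjusted p of the alternatives at 0.147. Exons of 8 of the 11 variant genes, H1f0 among them, overlap those of another gene model. H1fx, the other linker variant, had 33.77, 34.03 and 32.17 in Cdyl-Het against 41.70, 37.73 and 53.67 in Cdyl-KO. Its groups did not overlap, but Cdyl-KO replicate 3 stood far above the other 2, and the change of 0.39 ± 0.12 did not pass (adjusted p = 0.0987).

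The H2A variants did not pass the test. H2afz, which encodes H2A.Z of promoters and enhancers, had 83.04, 77.94 and 79.10 in Cdyl-Het against 91.50, 87.86 and 92.03 in Cdyl-KO. Its near-identical relative H2afv had 30.96, 32.63 and 28.96 and then 40.53, 37.60 and 34.12. Both were higher in every Cdyl-KO library, at 0.18 ± 0.05 (adjusted p = 0.0895) and 0.27 ± 0.08 (adjusted p = 0.0818). H2afx, the variant phosphorylated at DNA breaks and the only variant with a stem-loop here, measured 75.1 ± 0.47 and 83.5 ± 4.83 (0.15 ± 0.06). The macroH2A genes H2afy (21.5 ± 0.65 and 22.6 ± 0.64) and H2afy2 (27.1 ± 2.24 and 30.5 ± 1.24) gave 0.07 ± 0.05 and 0.17 ± 0.07. H2afj (8.25 ± 0.43 and 7.58 ± 1.01) and H2afy3, at 1.52, 0.84 and 2.26 against 0.50, 1.34 and 1.66 and 23 to 118 reads, had negative changes of -0.11 ± 0.09 and -0.23 ± 0.28 with overlapping groups.

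H3f3a and H3f3b both encode H3.3, which is placed on DNA outside replication. H3f3b was the variant gene of highest level, with 155.0, 158.0 and 148.9 in Cdyl-Het against 168.2, 155.5 and 179.4 in Cdyl-KO. Its groups overlapped (0.12 ± 0.07). H3f3a, with 74.52, 73.17 and 70.14 against 79.57, 85.85 and 76.51, did not overlap and did not pass (0.15 ± 0.06, adjusted p = 0.181).

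Summed over members, the 2 classes differed between the groups by the same share. The 66 replication-dependent genes summed to 9398, 9573 and 9764 scaled RPKM in Cdyl-Het against 10732, 11372 and 10520 in Cdyl-KO, 13.5% more in the means. The 11 variant genes summed to 581.4, 577.6 and 555.9 and then 640.8, 634.2 and 670.8, also 13.5% more. On the deposited values the 2 sums were 2.68% and 2.54% more. The ratio of the classes, unchanged by division by 1 factor per library, was 16.16, 16.57 and 17.56 in Cdyl-Het against 16.75, 17.93 and 15.68 in Cdyl-KO. Its groups overlapped, with means of 16.8 ± 0.72 and 16.8 ± 1.12 (SD, n = 3), so no difference between the classes was larger than the spread.

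Of 7 ratios between the sums of replication-dependent types, 3 had groups that did not overlap and 4 overlapped, and none was tested. Among single genes, 17.0% were higher without overlap and 14.5% lower. The H2B sum was 2411, 2347 and 2288 in Cdyl-Het against 2930, 2908 and 2995 in Cdyl-KO, and on the deposited values 2521, 2459 and 2431 and then 2801, 2817 and 2778. Neither pair of groups overlapped, at 25.3% and 13.3% more. The H1 sum on the deposited values was 832.6, 936.7 and 878.4 and then 766.6, 809.5 and 723.5, lower without overlap, while on the scaled values the groups overlapped (a change of -3.97%). The ratio of the H2B to the H1 sum was 3.028, 2.625 and 2.768 in Cdyl-Het against 3.654, 3.480 and 3.840 in Cdyl-KO. These did not overlap, nor did the ratio of H2B to H3 (1.598 ± 0.082 and 1.832 ± 0.123). The ratio of H1 to H2A was lower in every Cdyl-KO library (0.261 ± 0.018 and 0.224 ± 0.010). The ratios of H2B to H2A (0.730 ± 0.048 and 0.820 ± 0.062) and of H2B to H4 (1.39 ± 0.10 and 1.55 ± 0.20) overlapped, as did H3 to H4 and H2A to H4.

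**Figure D3:**
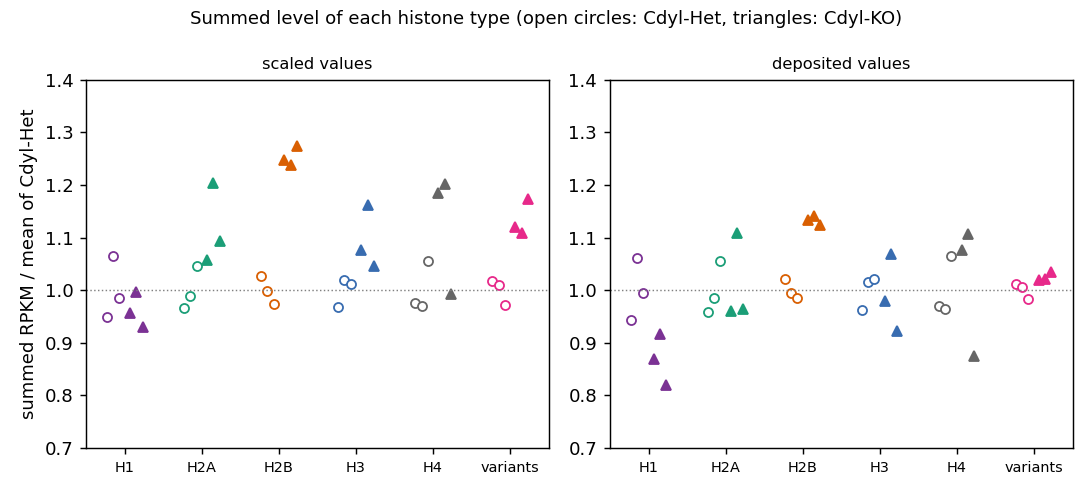
Summed RPKM of each replication-dependent type and of the variants in each library, divided by the mean of the 3 Cdyl-Het libraries (vertical axis, no unit), for scaled values (left) and deposited values (right). Circles are Cdyl-Het and triangles Cdyl-KO libraries. H2B is the replication-dependent type whose triangles lie above its circles in both panels, and the H1 triangles lie below its circles on the right.

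Copies of a histone type are much alike, which bears on how reads were assigned. The share of a gene's 50-base windows also found in another gene ran from 0% to 100% among replication-dependent genes. Its medians were 78.9% in H2A, 57.2% in H3, 44.0% in H2B, 39.5% in H4 and 1.13% in H1. Genes whose exons overlap those of the member were left out of this share, which concerns 23 of the 66. Values times length and depth came within 0.02 of a whole read count in all 6 libraries for 8 of the 77 members (2 H1, 2 H4 and 4 variant genes). In 57 of 66 replication-dependent genes they did so in at most 1 library. The variants H2afj and H3f3b did so in 0 libraries with only 2.19% and 6.86% of windows shared. The sources used here do not say how reads that map to several copies were counted, so values of single copies are uncertain. Among H2B genes with under 50% of windows shared, 8 of 11 rose, with a median of 0.33, and with 50% or more shared, 7 of 7, with a median of 0.27. Hist1h2be shares 6.28% of its windows and changed by 0.40. Hist2h2bb shares 0.00% and had a change of 0.29 (adjusted p = 0.0639 by limma). Both overlap exons of other gene models, which do not count in these shares. Among H2A genes, 1 of 5 below 50% and 0 of 12 at or above it rose.

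**Figure D4:**
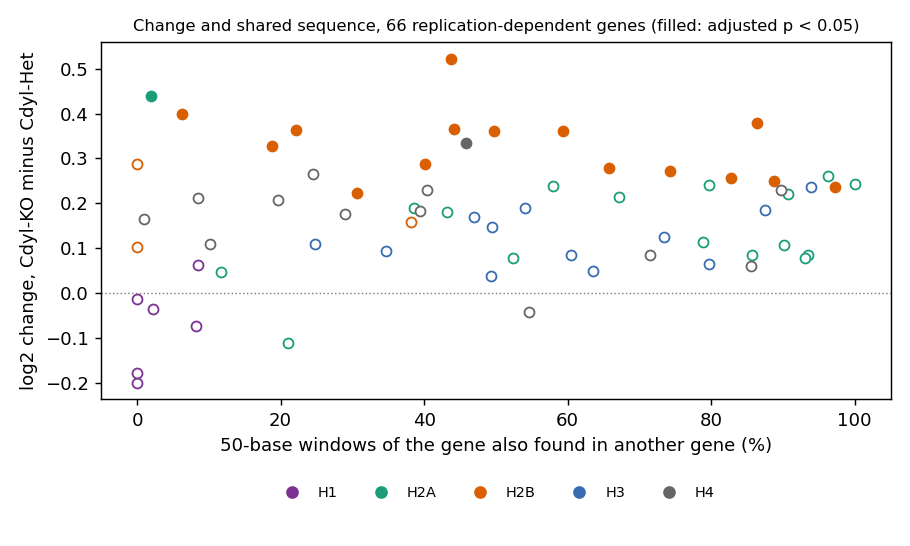
Change of each of the 66 replication-dependent genes (vertical axis, Cdyl-KO minus Cdyl-Het, log2 scale) against the share of its 50-base windows found in another gene (horizontal axis, %). Genes with overlapping exons were left out of the share. Colours are histone types and filled points passed an adjusted p of 0.05. The filled H2B points run from 6.28% to 97.3% shared.

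Position and promoter letters were compared for the same genes as descriptions. Of the 66 replication-dependent genes, 53 lie in the cluster of chromosome 13 (chr13:21715763-23934156), 10 on chromosome 3, 2 on chromosome 11 and 1 on chromosome 6. Cdyl lies on chromosome 13 too, at 35659833 to 35874063. In the chromosome 13 cluster, 14 of 15 H2B genes and 0 of 12 H2A genes rose by limma, with medians of 0.29 and 0.11, and 14 and 5 were higher at an unadjusted p under 0.05. The 5 other genes inside that cluster had a median of -0.086 with 0 calls by limma (0 higher and 1 lower at an unadjusted p under 0.05), and 388 other genes of chromosome 13 had a median of -0.0086. Of the H2B genes with the octamer, as in the sequence of Hist1h2bm, 4 of 6 rose, and of those without it, as Hist1h2bj, 10 of 10. Of H2B genes with an annotated stem-loop 10 of 10 rose, and of those without one 5 of 8.

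On the scaled values few genes that make, process or place histones passed the test, where 4.67% of all genes rose and 2.83% fell. The lists were chosen with earlier results of these data known. Of 22 measured genes of histone transcription, mRNA 3' end processing and decay, 0 passed by limma, with a median of 0.012, and at an unadjusted p under 0.05 there were 2 higher and 1 lower. Among them Slbp, which binds the stem-loop, was at 13.1 ± 0.73 and 14.9 ± 0.23 (0.17 ± 0.06, adjusted p = 0.107), and Npat, the activator of the clusters, at 7.84 ± 0.52 and 7.27 ± 0.22 (-0.10 ± 0.06). Of 29 histone chaperones and deposition factors, Asf1b, the H3-H4 chaperone of dividing cells, fell (3.17 ± 0.15 and 2.09 ± 0.27, -0.44 ± 0.09, adjusted p = 0.0305), and 28 did not pass. The Asf1b call was lost without any 1 of the 6 libraries (adjusted p of up to 0.0979 over all alternatives). On the deposited values 5 of the 22 and 4 of the 29 were lower and 0 were higher. Of all genes, 13.3% were lower there. Of 33 genes of S phase and DNA replication, Pole, which copies the leading strand, fell (8.09 ± 0.44 and 6.51 ± 0.38, adjusted p = 0.0458), and 27 had negative changes, with a median of -0.13. The Pole call was lost without any 1 of the 6 libraries and with a spread without trend (adjusted p of up to 0.124 over all alternatives). At an unadjusted p under 0.05, 11 of the 33 were lower and 1 higher, against 1312 lower and 1665 higher of all genes. On the deposited values 15 of 33 were lower, where 13.3% of all genes were. None of 14 mitosis genes passed by limma (median -0.010, 1 higher and 3 lower at an unadjusted p under 0.05). Of the 14, 4 were lower on the deposited values. Of 6 genes of cell cycle exit, the inhibitor Cdkn1b rose (10.3 ± 0.85 and 14.4 ± 0.73, adjusted p = 0.0157), and all 6 had positive changes, with a median of 0.29. Of all 11736 genes, 5850 had positive changes. On the deposited values the median of the 6 was 0.14 and their lowest change 0.0018. The Cdkn1b call was lost when replicate 2 or 3 of Cdyl-Het, or replicate 1 or 2 of Cdyl-KO, was left out (adjusted p of up to 0.0582 over all alternatives).

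Changes of other groups of genes, by RNA type, level, G and C content and exons, are given for comparison. The 122 short RNAs without a poly(A) tail in the tables had a median change of 0.38 (103 above 0, 5 higher and 1 lower). Of all genes, 4.67% were higher and 2.83% lower. The highest of 4 groups of genes by level, from 12.1 scaled RPKM up, had a median of 0.068 with 9.07% higher, against -0.086 in the lowest group. Of 4 groups by G and C content, the richest had a median of 0.049 and the poorest -0.027. Other genes with a single exon had a median of 0.058, and other genes with under 1 kb of exon 0.038. The part of these features in the histone results was not tested.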

How the data were processed

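Each library had 1 deposited table of gene symbols and values. The submitters' processing notes name STAR, featureCounts 1.6.4 (Subread) and mm10. The sources used here do not give the step to the deposited values, the strand setting or the handling of reads with several positions. The deposited values have no stated unit and were taken as RPKM from the values themselves: with GENCODE M21 exon lengths, 84.7% to 86.9% of low values (up to 200 reads, tolerance 0.02) were whole reads. The depth is thus implied, not read from counts, and intervals are limited by 3 libraries per group.

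Values were scaled by a trimmed mean of log ratios (30% of ratios and 5% of levels, no weights, first Cdyl-Het library as the reference). log2(scaled RPKM + 1) was fitted with limma 3.58.1 in R 4.3.3 (group only, spread by level), two-sided, with Benjamini-Hochberg adjustment over all 11736 genes and a threshold of 0.05. No further filter was used: all 77 members had a deposited mean above 1 in both groups. The fit was tested on simulated data in which genes varied independently, so that test does not cover copies that share reads. Genes on the text's lists, and the members, were chosen with earlier results of these data known. Members described are every variant, up to 15 replication-dependent genes past the threshold by p, the 8 of highest level, and the 2 largest and 2 smallest changes of each type that did not pass. Hist1h2bl, Hist1h1e, Hist1h1d, Trim17, Slbp and Npat were added after their values were seen. Alternatives were other scalings, pseudocounts 0.1 and 5, a mean of at least 5, a spread without trend, a replicate block and leaving out each library. Sequences came from GENCODE M21 and RefSeq, and 11539 symbols matched 1 gene.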

Additional observations from a re-analysis of the deposited data

How the results depend on the processing

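Among all genes, 548 were higher and 332 lower. These counts were 305 and 1558 without scaling, and 387 down to 197 and 260 down to 56 when 1 library was left out. The replication-dependent genes higher in Cdyl-KO fell from 17 to 7 without scaling and 3 after quantile normalization, and to between 2 and 7 without 1 library, and for H2B from 15 to 6, 2 and between 1 and 6. In these 2 scalings 1 replication-dependent gene, Hist1h1b, was lower, where the main count was 0. The variant count of 1 became 0 without scaling, after quantile normalization and without any 1 library (0 to 0). Median-ratio scaling, pseudocounts of 0.1 and 5, a mean of at least 5 and a spread without trend kept 16 to 18 of the 18 called members. All 18 kept their sign in the 14 alternatives, and for the 50 members chosen for description no called change turned its sign. The log2 difference of the replication-dependent to variant ratio stayed between -0.048 and 0.049. The cause of the lost calls was not tested, and leaving out a library also leaves fewer samples.

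With the replicate block, which uses the shared replicate numbers, 209 genes were higher and 128 lower, 1 replication-dependent gene (Hist3h2a) was higher, with 0 of the H2B genes and 0 of the variant genes. Of the other named genes past the threshold, Nr0b1, Emx2, Kdr and Cdkn1b kept the call with the block, and Asf1b, Pole, Lhx9, Egfl7, Cdh5, Tek, Pax8 and Tubb3 lost it. Same-numbered libraries did not deviate together (correlations across genes of -0.052, -0.27 and -0.053), and differently numbered libraries gave -0.144 to 0.222. Deviations from a mean of 3 libraries sum to 0 in each group, so these correlations cannot decide whether the numbers pair the samples. Members of low level are limited by depth: H2afy3 rests on 23 to 118 implied reads.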
